A study of Mus musculus with 6 samples.

Results

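The genes described here are 10 components of elastic fibres and microfibrils, Eln, Fbn1, Fbn2, Mfap2, Mfap5, Fbln1, Fbln2, Fbln5, Efemp1 and Efemp2. They were chosen by name from 55401 genes counted in NIH3T3 cells, an immortalized line of mouse embryonic fibroblasts, and all 10 were found by their Ensembl identifiers. Poly(A) RNA was sequenced from 6 libraries. Cells carrying the empty vector and given DMSO (EV) gave 2 libraries, cells expressing the fusion protein TAZ-CAMTA1 and given DMSO (TC) gave 1, and cells expressing TAZ-CAMTA1 and given 10 μM aurintricarboxylic acid (TC + ATA) gave 3. All cells had been seeded for 16 h and were then kept in DMSO or ATA for 48 h. TAZ-CAMTA1 is the fusion of epithelioid hemangioendothelioma and ATA is a small molecule examined by the study as a disruptor of the binding of TAZ to TEAD transcription factors. No library of EV cells given ATA was analysed here, and neither the promoter of the transgene nor the number of clones is given in the sources used here. No source says that the libraries of a group came from separate cultures, so the p-values below measure the spread between these libraries, which may be technical.

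Elastic fibres have a core of cross-linked elastin laid down on a scaffold of fibrillin microfibrils. Small microfibril-associated glycoproteins bind the fibrillins, and fibulins sit at the border of scaffold and core, where several of them bring the soluble elastin precursor together with the lysyl oxidases that cross-link it. Fibroblasts and smooth muscle cells are the usual makers of these fibres, and fibroblasts can assemble microfibrils without elastin.

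TEAD factors bind the letters GGAATG, and AP-1, which shares many enhancers with them, binds TGACTCA or its reverse complement TGAGTCA. The 250 bases before the annotated start were searched on both strands in the RefSeq promoter table (GRCm38.p6). It held 12 windows for 7 of the 10 genes, some of them overlapping, and none for Eln, Fbn2 or Mfap5. Shown are a window of Fbln1 and that of Efemp1, the genes with a window among those that rose in TC, and the single window with a match, which belongs to Mfap2. Capitals mark GGAATG, whose first base lies 176 bases before the start, and all 3 are printed 5′ to 3′ on the plus strand.
Fbln1, chr15:85205699-85205948: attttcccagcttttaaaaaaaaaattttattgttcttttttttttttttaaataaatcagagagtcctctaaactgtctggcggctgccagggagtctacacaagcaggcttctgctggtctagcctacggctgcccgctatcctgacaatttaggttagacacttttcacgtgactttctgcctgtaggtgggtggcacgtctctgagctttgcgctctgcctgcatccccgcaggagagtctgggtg
Efemp1, chr11:28852955-28853204: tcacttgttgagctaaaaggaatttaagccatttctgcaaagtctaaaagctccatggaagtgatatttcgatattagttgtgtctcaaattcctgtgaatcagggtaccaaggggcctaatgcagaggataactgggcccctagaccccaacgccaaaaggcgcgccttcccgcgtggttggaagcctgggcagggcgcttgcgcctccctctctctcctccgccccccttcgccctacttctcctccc
Mfap2, chr4:141010174-141010423: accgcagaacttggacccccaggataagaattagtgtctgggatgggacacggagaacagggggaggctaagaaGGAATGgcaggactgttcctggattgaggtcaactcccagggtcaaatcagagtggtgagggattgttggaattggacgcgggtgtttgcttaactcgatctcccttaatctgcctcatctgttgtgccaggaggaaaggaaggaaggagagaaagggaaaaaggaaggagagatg
GGAATG or its reverse complement was thus in 1 of 12 windows, beside 12.6% of all 32851 windows of this length. With 12 windows from 7 genes, some overlapping, no difference from that share can be read. The AP-1 letters were in 0 of 12 windows and in 4.46% of all windows. These matches describe letters near the start only, and enhancers were not searched.

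The libraries held 58471484 to 74413193 counts. Levels are given as CPM (counts divided by the TMM-scaled library total and brought to a common size), and a call is an adjusted p of at most 0.05 in edgeR's quasi-likelihood test across 18539 genes. The study's own limit of 2 on the absolute log2 fold change is named where a gene passed it or came near it. The EV libraries differed from each other more (chi-square of 67.3 per degree of freedom over genes) than any pair of TC + ATA libraries did (6.23 to 7.04), and TC has 1 library, whose spread is assumed to be that of the others. The fibroblast markers Col1a1, Col1a2 and Vim were among the abundant transcripts, with Col1a1 at 3240 and 2791 CPM in EV, whereas 2 of 7 fibroblast markers, Pdgfra and Thy1, fell in TC and 2, Col1a1 and Vim, rose. Endothelial and epithelial markers stayed at or under 1.43 CPM, as did the smooth muscle markers Tagln, Cnn1, Myh11 and Myocd. The leukocyte marker Lyz2 was at 0.495 and 0.249 CPM in EV, 5.66 in TC and 8.40 to 9.59 in TC + ATA. Ptprc, also a leukocyte marker, was at 3.17 and 2.87 CPM in EV, 2.23 in TC and 0.282 to 5.33 in TC + ATA. The leukocyte marker Cd68 was at 2.57 and 3.45 CPM in EV, 2.58 in TC and 1.81 to 3.68 in TC + ATA. In TC versus EV 1 of 4 smooth muscle markers tested (Acta2), 1 of 5 endothelial (Cdh5), 0 of 2 epithelial and 1 of 3 leukocyte markers (Lyz2) were called, all higher. Acta2, the smooth muscle actin gene, lay at 460 and 345 CPM in EV, 620 in TC and 1181 to 1242 in TC + ATA. In TC + ATA versus TC it was called higher (log2 fold change 0.97, adjusted p = 0.0303), the only marker called there. The part of cell state in the results below was not tested. In such bulk RNA, fewer cells with a transcript and less transcript per cell cannot be told apart.

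In TC compared with EV, 3 of the 10 genes rose and none fell. Mfap5, which encodes the microfibril-associated glycoprotein MAGP-2, rose 12.1-fold, Fbln1 (fibulin-1) rose 4.17-fold and Efemp1 (fibulin-3) rose 1.32-fold. The shares called among all 18539 genes were 14.8% for higher and 13.2% for lower. Because the 10 genes were chosen with earlier results known, their count is not an independent test against these shares. The unadjusted p was under 0.05 for the same 3 genes and for 1 lower gene, Eln, and DESeq2 also called 3 higher and 0 lower. The median log2 fold change of the 8 genes with enough counts for one (all but Fbn2 and Mfap2) was 0.04, beside −0.03 over all genes tested. With scaling by library size alone the median of all genes shifted by −0.108 and the calls over all genes were 2072 higher and 3159 lower, in place of 2735 and 2456, but the same number of the 10 genes were called. All 10 passed the filter on low counts, Fbn2 and Mfap2 only through 1 TC + ATA library.

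**Figure D1:**
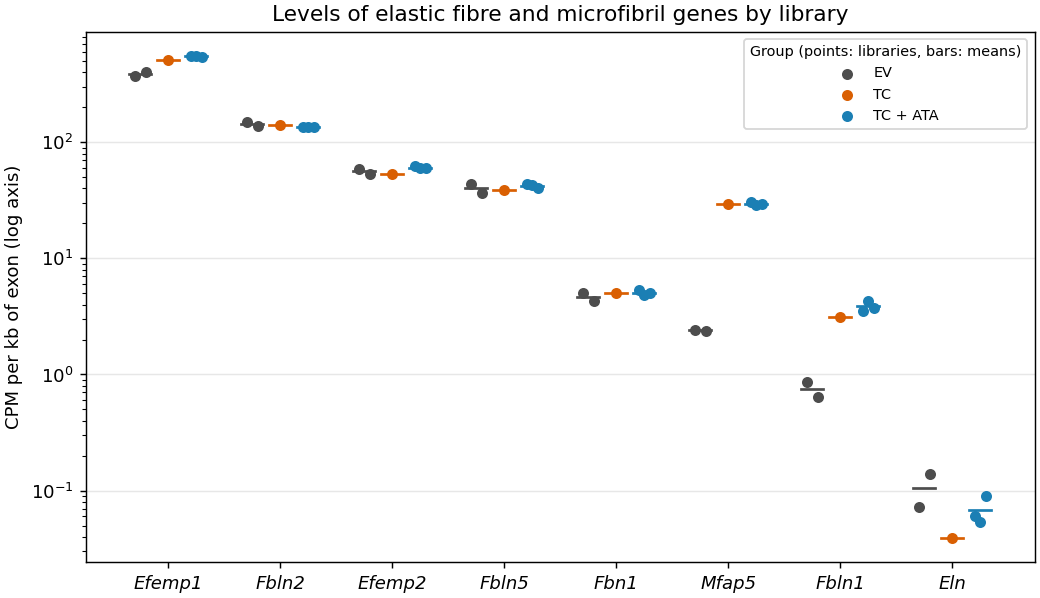
Level of each gene in CPM per kilobase of exon (log axis) in every library, with points for libraries and short bars for group means; Fbn2 and Mfap2, with at most 12 counts, are not drawn. Mfap5 and Fbln1 lie far higher in TC and TC + ATA than in EV, Efemp1 slightly higher, and the other genes stay near their EV level or, for Eln, scatter.

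Eln encodes tropoelastin, the soluble monomer of the elastin core (chromosome 5, 134702593 to 134747323, minus strand, GRCm38, as are all positions here). It was barely present. Its counts were 44 and 85 in EV, 22 in TC and 28, 31 and 51 in TC + ATA, which is 0.588, 1.11, 0.317, 0.493, 0.437 and 0.733 CPM. TC was the lowest of the 6 libraries, and TC + ATA overlapped EV. The change of TC from EV was, on the log2 scale, −1.42 (SE 0.59, adjusted p = 0.110), and −1.82 without EV replicate 1. That fit held 1 library of each of these groups, so only the size is given. An antisense gene, Gm30003, overlaps 267 of its 8098 exonic bases and had 0 counts in every library.

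Fibrillin-1, the main structural protein of microfibrils, comes from Fbn1 on chromosome 2 (125300594 to 125507993, minus strand). Its levels were 60.4 and 51.6 CPM in EV, 61.2 in TC and 64.1, 58.8 and 60.9 in TC + ATA. TC lay just above the higher EV library, and the log2 fold change of 0.13 was not called (SE 0.11, adjusted p = 0.431). Without EV replicate 1 it was 0.23, in a fit whose spread came from the TC + ATA libraries alone. The gene shares 2442 of 12128 exonic bases with Gm9913 on the other strand, which held 5 to 15 counts, and the sources used here do not give the strand setting of the counting.

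Fbn2 and Mfap2 were at the edge of detection. Fbn2, the fibrillin of developing tissue, had 8 and 0 counts in EV, 4 in TC and 0, 12 and 0 in TC + ATA. Mfap2, which encodes the fibrillin-binding glycoprotein MAGP-1 (chromosome 4, 141010418 to 141015984, plus strand), had 2 and 2 counts in EV, 4 in TC and 0, 12 and 0 in TC + ATA. For both genes the replicates of a group ran from 0 to at least 8 counts in EV or TC + ATA, so no fold change is given. A count of 0 allows up to 3 counts, which is 0.0393 to 0.0528 CPM in these libraries. Mfap2 and its paralog Mfap5 thus had 4 and 7260 counts in TC.

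Mfap5 lies on chromosome 6 (122505845 to 122529290, plus strand). It was measured at 8.70 and 8.58 CPM in EV (651 and 654 counts), at 104.6 in TC (7260 counts) and at 109.4, 103 and 104.9 in TC + ATA (6219, 7317 and 7298 counts). Every TC-expressing library was far above both EV libraries, and TC lay inside the TC + ATA range. In TC versus EV the log2 fold change was 3.60 (SE 0.08, adjusted p = 5.71e-08), with a 95% interval of 10.7- to 13.7-fold. It passed the study's limit of 2 and ranked 19 among the increases of 10424 genes with a mean of at least 5 CPM. Under every alternative of normalization, filter, tool and library the log2 fold change stayed between 3.49 and 3.61 and was called.

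Fbln1 encodes fibulin-1, a glycoprotein of elastic fibres and basement membranes (chromosome 15, 85205949 to 85286535, plus strand). Its levels were 3.76 and 2.78 CPM in EV (281 and 212 counts), 13.6 in TC (947 counts) and 15.4, 18.8 and 16.4 in TC + ATA (877, 1334 and 1140 counts). All TC-expressing libraries were above both EV libraries, and TC was the lowest of the 4. For TC versus EV the log2 fold change was 2.06 (SE 0.18, adjusted p = 4.47e-05), with a 95% interval of 3.14- to 5.54-fold, and ranked 92 of 10424. It was called under every alternative, at 1.86 to 2.28 on the log2 scale, and it lay under the limit of 2 without EV replicate 2 (1.86) and with scaling by library size (1.96).

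Fibulin-2, from Fbln2 (chromosome 6, 91212455 to 91272540, plus strand), links fibrillin and the elastin core. Fbln2 was abundant, at 956 and 880 CPM in EV, 889 in TC and 857, 862 and 870 in TC + ATA. TC fell between the EV libraries, and all TC + ATA libraries were a little below both. In TC versus EV the log2 fold change was −0.05 (SE 0.09, adjusted p = 0.766), with a 95% interval of 0.834- to 1.12-fold.

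Fbln5 encodes fibulin-5, which binds tropoelastin and cell-surface integrins (chromosome 12, 101746565 to 101819055, minus strand). It stood at 305 and 255 CPM in EV, 271 in TC and 303, 294 and 278 in TC + ATA. The TC and TC + ATA values all lay inside the EV range. For TC versus EV its log2 fold change was −0.05 (SE 0.12, adjusted p = 0.806), with a 95% interval of 0.807- to 1.16-fold.

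Efemp2, on chromosome 19 (5473954 to 5482517, plus strand), encodes fibulin-4, which carries lysyl oxidase to tropoelastin. Levels were 225 and 202 CPM in EV, 202 in TC and 235, 228 and 226 in TC + ATA. TC matched the lower EV library, and the TC + ATA libraries were above all the others. The change of TC from EV was, on the log2 scale, −0.08 (SE 0.09, adjusted p = 0.589). Mus81 overlaps 173 of its 3788 exonic bases on the other strand. Among those of the 10 genes with a mean of at least 5 CPM, which leaves out Eln, its decrease was the largest, and it was not called. By the distance between mean-centred profiles of log2(CPM + 1) over the 6 libraries, the genes nearest to it were Ppt1 (distance 0.0330), Tspan3 (0.0593) and Lrpap1 (0.0615). Their log2 fold changes in TC versus EV were also small (−0.05, −0.12 and −0.09), so these distances mainly show that the profiles were flat.

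Without EV replicate 2, the log2 fold changes in TC versus EV were −0.11 for Fbln2, −0.17 for Fbln5 and −0.15 for Efemp2. Without EV replicate 1 the values of Fbln2 and Fbln5 turned to 0.00240 and 0.0755. The direction of Fbln2 and Fbln5 therefore rests on which EV library is used. With 1 EV library the spread came from the TC + ATA libraries alone, so these fits cannot decide whether the 3 genes changed.

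Efemp1 encodes fibulin-3, an extracellular glycoprotein of the fibulin family (chromosome 11, 28853204 to 28926743, plus strand). Per kilobase of exon it was the most abundant of the 10 in every group. Its levels were 765 and 821 CPM in EV, 1048 in TC and 1120, 1120 and 1113 in TC + ATA. Every TC-expressing library was above both EV libraries. For TC versus EV the log2 fold change was 0.40 (SE 0.09, adjusted p = 0.0106), with a 95% interval of 1.14- to 1.53-fold, and it did not reach the limit of 2. The call was lost without TC + ATA replicate 2 (adjusted p = 0.0565). It was also lost in the fit of the EV and TC libraries alone (adjusted p = 0.319) and with a replicate block (adjusted p = 0.122). Each of these fits leaves fewer residual degrees of freedom than the main fit, so a lost call does not show that Efemp1 was unchanged. The log2 fold change ran from 0.29 to 0.45 over all alternatives.

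**Figure D2:**
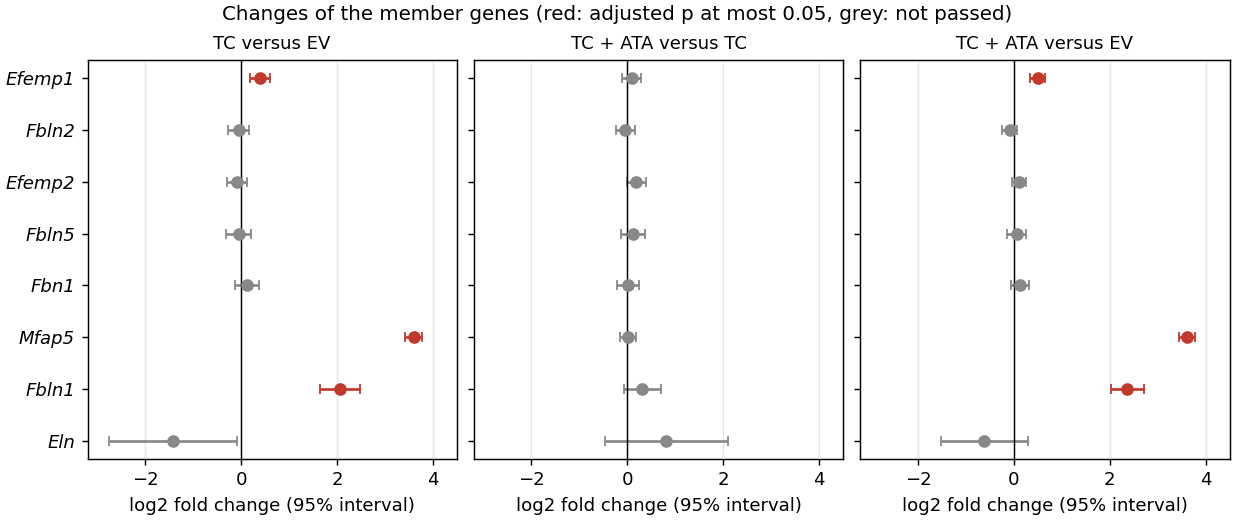
Log2 fold change with its 95% interval for 8 genes in the 3 comparisons, red where the adjusted p is at most 0.05 and grey where it is not. Mfap5, Fbln1 and Efemp1 are red in both comparisons with EV, which share the EV libraries, and no gene is red in TC + ATA versus TC.

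Levels were next compared between genes as CPM per kilobase of exon. In EV the order was Efemp1 (389), Fbln2 (144), Efemp2 (56.3), Fbln5 (40.5), Fbn1 (4.62), Mfap5 (2.41), Fbln1 (0.748) and Eln (0.105), with Mfap2 and Fbn2 last. In TC, Mfap5 had passed Fbn1, at 29.1 against 5.04 CPM per kilobase, and the remaining order down to Fbln1 (3.12) was that of EV. TC + ATA had the order of TC down to Fbln1 (3.86). In the EV and TC + ATA groups the library values of neighbours in this order did not overlap from Efemp1 down to Eln. Eln, Mfap2 and Fbn2 overlapped their neighbours in TC + ATA and had too few counts to be ordered.

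The ratio of Mfap5 to its binding partner Fbn1, per kilobase, was 0.487 and 0.561 in the EV libraries, 5.78 in TC and 5.77, 5.93 and 5.83 in TC + ATA. Per kilobase, Fbn1 thus lay above Mfap5 in EV and below it in all TC-expressing libraries. The length used is that of all annotated exons of a gene, so these ratios do not count transcripts. Efemp1 and Efemp2, the related fibulin-3 and fibulin-4 genes, had a ratio of 6.33 and 7.56 in EV, 9.64 in TC and 8.85, 9.15 and 9.16 in TC + ATA. The ratio of Fbln2 to Fbln1 was 175 and 217 in EV, 44.7 in TC and 38.1, 31.4 and 36.4 in TC + ATA. These ratios are within libraries and do not depend on the scaling between them.

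Summed over the 10 genes, the level per kilobase was 637 and 639 in EV, 784 in TC and 830, 826 and 821 in TC + ATA. Efemp1 supplied 61.0% of this sum in EV, 65.6% in TC and 66.5% in TC + ATA (means where there are replicates), and Fbln2 22.6%, 17.8% and 16.4%. The share of Mfap5 was 0.377% in EV, 3.72% in TC and 3.57% in TC + ATA. The sum is thus mainly a measure of Efemp1 and Fbln2.

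**Figure D3:**
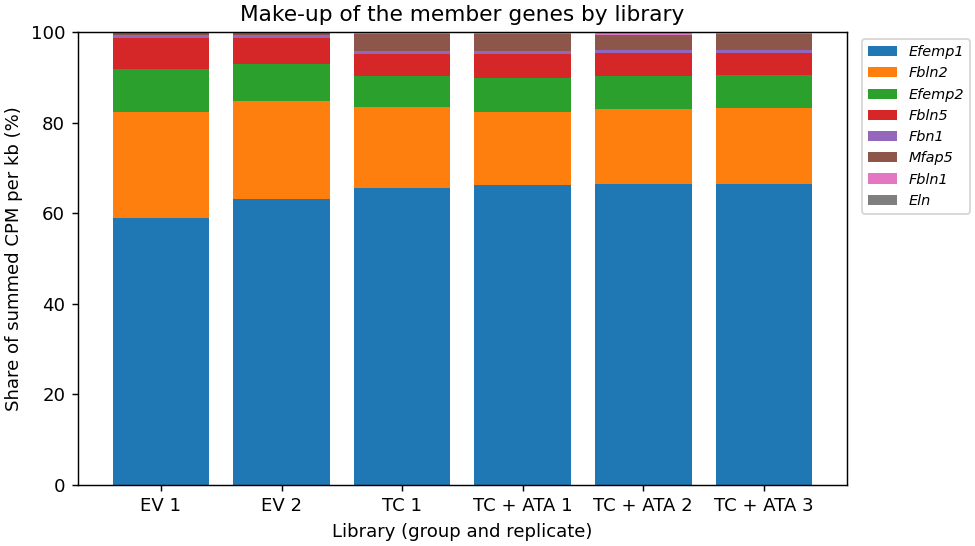
Share of each gene in the summed CPM per kilobase of the 10 genes, in percent, in each of the 6 libraries (stacked bars). Efemp1 and Fbln2 fill most of every bar, and the Mfap5 band is visible in the 4 TC-expressing libraries and nearly absent from the EV libraries.

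In TC + ATA compared with TC, which asks what ATA did in the fusion-expressing cells, none of the 10 genes was called, at the adjusted p in edgeR or in DESeq2 or at an unadjusted p under 0.05. The shares among all genes were 0.426% for higher and 0.156% for lower. The median log2 fold change of the 8 genes with enough counts was 0.10 and that of all genes 0.00. Mfap5 was measured at a log2 fold change of 0.02 (SE 0.07, adjusted p = 0.972), with a 95% interval of 0.90- to 1.14-fold. Fbln1 was at 0.31 (SE 0.17, adjusted p = 0.628), with an interval of 0.948- to 1.62-fold, and Efemp1 at 0.09 (SE 0.09, adjusted p = 0.801), with an interval of 0.928- to 1.22-fold. A return to the EV mean would have needed 0.0826 of the TC level for Mfap5, 0.240 for Fbln1 and 0.756 for Efemp1, and each lies below the interval of its gene.

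Of the other genes in TC + ATA versus TC, Efemp2 was at a log2 fold change of 0.18 (SE 0.09, adjusted p = 0.553), Fbln5 at 0.11 (adjusted p = 0.814), Fbln2 at −0.04 (adjusted p = 0.929) and Fbn1 at 0.00 (adjusted p = 0.997). Their 95% intervals together ran from 0.845- to 1.30-fold. Efemp2 was called higher in the fit of these groups alone (0.19, adjusted p = 0.00879), without EV replicate 1 (0.18, adjusted p = 0.0128) and without EV replicate 2 (0.20, adjusted p = 0.00899), where the EV pair no longer adds to the spread. Eln was at 0.81 (SE 0.57, adjusted p = 0.713), with an interval of 0.719- to 4.25-fold that leaves its direction unknown.

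TC + ATA and EV, the only groups that both have replicates, gave the same count as TC versus EV, with 3 of 10 genes higher and none lower, beside 18.0% and 18.6% of all genes tested. An unadjusted p under 0.05 was likewise found for 3 higher and 0 lower, and DESeq2 called 3 and 0. Mfap5 was 12.2-fold higher (log2 fold change 3.61, SE 0.07, adjusted p = 2.25e-08), Fbln1 5.17-fold (2.37, SE 0.15, adjusted p = 4.20e-06) and Efemp1 1.41-fold (0.49, SE 0.07, adjusted p = 0.000591). These 3 genes were called under every alternative in this comparison. The comparison shares its EV libraries with TC versus EV and is not independent of it.

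Of the uncalled genes in TC + ATA versus EV, Eln was at a log2 fold change of −0.62 (adjusted p = 0.265), Fbn1 at 0.13 (adjusted p = 0.247), Efemp2 at 0.11 (adjusted p = 0.256), Fbln5 at 0.06 (adjusted p = 0.621) and Fbln2 at −0.09 (adjusted p = 0.361). Again the EV libraries decided such small values. Without EV replicate 1 they were 0.23 for Fbn1, 0.18 for Fbln5 and 0.17 for Efemp2. Without EV replicate 2 they were −0.14 for Fbln2 and −0.0533 for Fbln5. With scaling by library size Fbln2 was called lower (−0.17, adjusted p = 0.0184), Fbln5 turned to −0.0218, and over all genes 2711 were called higher and 4384 lower in place of 3340 and 3449.

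The other genes of the pathway were taken from 6 lists of 41 genes, of which 34 were tested. Of these 11 rose and 14 fell in TC versus EV, beside 14.8% and 13.2% of all genes tested, and the median log2 fold change of the 32 with enough counts for one was 0.01. In TC + ATA versus TC 1 rose and 1 fell, beside 0.426% and 0.156% of all genes, and in TC + ATA versus EV 15 were called higher and 15 lower, beside 18.0% and 18.6%. The counts of the single lists below are to be read against the same shares. The lists too were chosen with earlier results of these data known, so no count is an independent test. The study's limit of 2 was passed in TC versus EV by Hmcn1, Mmp9 and Cela1 among these 32 genes, all lower, and in TC + ATA versus EV by Hmcn1 and Mmp9. No list but the emilins and the elastin receptor moved in a single direction in TC versus EV.

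The lysyl oxidases, which cross-link elastin and collagen, moved in both directions, with 3 higher and 2 lower. Loxl4 rose from 31.7 and 35.4 CPM in EV to 134 in TC (log2 fold change 2.00, just under the limit before rounding, adjusted p = 1.62e-06), and Loxl3 rose by a log2 fold change of 1.02 (adjusted p = 1.83e-05), as did the low Loxl2 by 1.53 (adjusted p = 0.0161). Lox itself fell from 1761 and 1617 to 905 CPM (−0.90, adjusted p = 0.000249). Loxl1, whose product acts with fibulin-5, changed by −0.77 (adjusted p = 0.000657), and Atp7a, which supplies copper to these enzymes, by −0.34 (adjusted p = 0.0471). With Atp7a, all 6 genes of the list were called, 3 in each direction. None was called in TC + ATA versus TC, and the same 3 to 3 split was called in TC + ATA versus EV.

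Some, but not all, of the latent TGF-beta binding proteins attach TGF-beta to fibrillin microfibrils. Of 7 genes for this protein family and for the ligands, 2 rose in TC versus EV, Ltbp2 (1.12, adjusted p = 1.62e-05) and Tgfb2 (0.50, adjusted p = 0.0218). Ltbp1 (−0.99, adjusted p = 8.00e-05), Tgfb3 (−0.74, adjusted p = 0.000775), Tgfb1 (−0.71, adjusted p = 0.00434) and Ltbp4 (−0.55, adjusted p = 0.00208) fell. Ltbp2 was 45.6 and 47.8 CPM in EV, 102 in TC and 71.7, 66.0 and 69.4 in TC + ATA, so that the TC + ATA libraries lay between the other groups. Of this list 2 genes were higher and 4 lower in TC + ATA versus EV.

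Of the emilins and other microfibril or fibulin relatives, 5 of 7 were tested, and 3 fell in TC versus EV while none rose. Emilin1, an elastin-border glycoprotein gene, was 123 and 108 CPM in EV, 38.7 in TC and 60.8, 57.9 and 59.1 in TC + ATA. Its change in TC versus EV was −1.58 on the log2 scale (adjusted p = 8.46e-06). Hmcn1, the gene of hemicentin-1, fell by 2.16 (adjusted p = 0.000497). Mfap4, a gene for a protein that binds microfibrils, had 75 and 92 counts in EV, 2 in TC and 8, 4 and 10 in TC + ATA. It was called lower (adjusted p = 0.00190), and no fold change is given against the 2 counts of TC. In TC + ATA versus EV, 1 gene of this list rose, Hmcn2 (1.18, adjusted p = 0.0151), and the same 3 fell.

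Ltbp2 and Emilin1 were the 2 pathway genes called in TC + ATA versus TC. Ltbp2 fell, with a log2 fold change of −0.56 (SE 0.08, adjusted p = 0.0184), and Emilin1 rose by 0.62 (SE 0.10, adjusted p = 0.0303). Compared with EV, the TC + ATA level remained higher for Ltbp2 (0.56, adjusted p = 0.000169) and lower for Emilin1 (−0.96, adjusted p = 9.98e-06). Both calls in TC + ATA versus TC were lost without any 1 of the TC + ATA replicates, with adjusted p of 0.0891 to 0.158 for Ltbp2 and 0.154 to 0.192 for Emilin1. A replicate block lost both as well (adjusted p = 0.234 for Ltbp2 and 0.116 for Emilin1), and scaling by library size lost that of Ltbp2 (adjusted p = 0.0564).

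Of 8 genes for ADAMTS and ADAMTSL proteins of microfibrils 5 were tested. Adamtsl4 (1.70, adjusted p = 2.40e-05) and Adamtsl5 (0.80, adjusted p = 0.00206) rose in TC versus EV, and Adamts10 (−0.88, adjusted p = 0.0188) and Adamts6 (−0.94, adjusted p = 0.0403) fell. Adamts6 was no longer called without EV replicate 2 (−0.60, adjusted p = 0.0828) or without any 1 of the TC + ATA replicates (adjusted p of 0.0585 to 0.0647). The list counted 2 higher and 2 lower in TC + ATA versus EV also, and none in TC + ATA versus TC.

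Among 10 genes for enzymes that can cleave elastin 8 were tested, and 2 rose and 2 fell in TC versus EV. Ctsl, the cathepsin L gene, rose by a log2 fold change of 0.78 (adjusted p = 0.00117) and Mmp14 by 0.39 (adjusted p = 0.00977). Mmp9, a gelatinase gene, fell from 4.96 and 5.01 CPM in EV to 0.749 in TC (−2.73, adjusted p = 0.000121), and Cela1, an elastase gene, changed by −2.15 (adjusted p = 0.000104). Mmp12 and Elane, for the elastases of macrophages and neutrophils, had 0 counts in every library. In TC + ATA versus EV, 4 genes of this list were called higher (Mmp3, Mmp14, Ctsk and Ctsl) and 3 lower (Mmp2, Mmp9 and Cela1), and none was called in TC + ATA versus TC. Mmp3 had 0 and 0 counts in EV, 4 in TC and 4, 16 and 2 in TC + ATA, so that it passed the filter only through a TC + ATA library, and its call rests on few counts.

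The elastin receptor complex, which binds elastin fragments and is formed by Glb1, Neu1 and Ctsa products, had 2 of 3 genes higher in TC versus EV, Neu1 (0.49, adjusted p = 0.00248) and Ctsa (0.40, adjusted p = 0.00812). The call of Ctsa was lost in the fit of the EV and TC libraries alone (adjusted p = 0.106). All 3 were higher in TC + ATA versus EV, and none was called in TC + ATA versus TC. These genes also serve lysosomal breakdown of glycoconjugates.

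**Figure D4:**
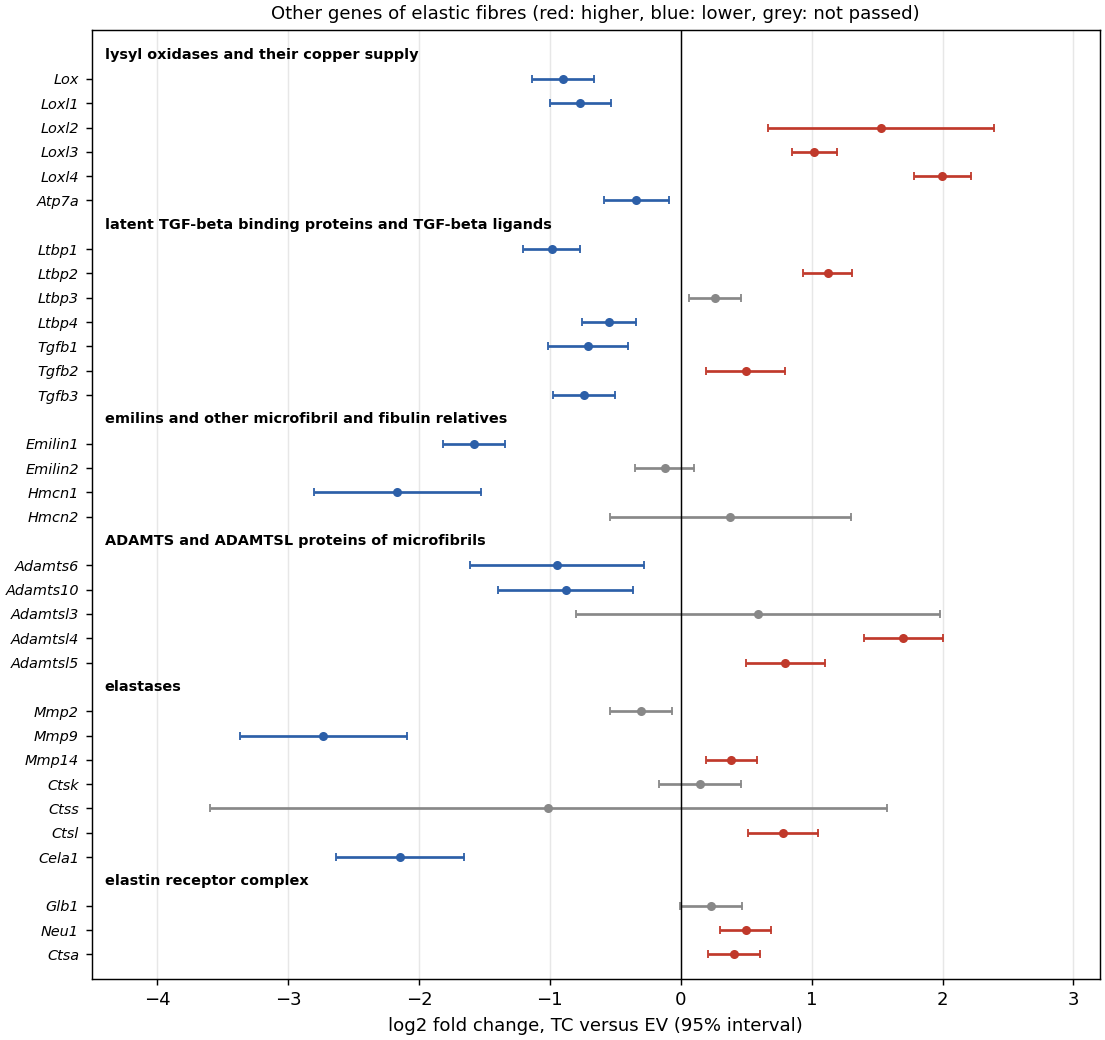
Log2 fold change in TC versus EV with its 95% interval for 32 other genes of the pathway in 6 lists, red where called higher, blue where called lower and grey where not called; Mfap4 and Mmp3 are not drawn because a group had at most 3 counts in all. Lysyl oxidase genes lie on both sides of 0, and Emilin1 and Hmcn1 lie below 0.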

How the data were processed

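Bulk RNA-Seq of 6 NIH3T3 libraries was analysed. The groups and replicate numbers came from the labels. Per the labels and the study's methods, the authors extracted RNA with RNeasy kits, made poly(A)-selected NEBNext Ultra II libraries, sequenced them as read pairs on an Illumina HiSeq, aligned the reads to GRCm38.p6 (mm10) in Galaxy with HISAT2 (version 2.2.1 in the submitters' processing notes) and ran featureCounts on them. Raw counts, whole numbers with no normalization, are what the authors deposited. The annotation release and the strand setting are not given in the sources used here. Among genes with 1 to 10 counts, 62.1% to 64.3% held an even number, as did all counts of Fbn2 and Mfap2, and whether both mates of a pair were counted was not tested.

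Counts were analysed in R 4.3.3 with edgeR 4.0.16 (TMM, filterByExpr, glmQLFit, glmQLFTest, 1 fit of the 6 libraries with 3 residual degrees of freedom, Benjamini-Hochberg adjustment over 18539 genes). Standard errors came from the F statistic and intervals from the t distribution. The edgeR step was tested on simulated data. Fold changes are given from a mean of 10 counts, for genes with more than 3 counts in each group. Symbols, positions and exonic lengths came from GENCODE M21, which holds 55141 of the 55401 identifiers. Alternatives were DESeq2 1.42.0, edgeR on the compared groups alone, upper quartile or library size scaling, other filters, a replicate block and the omission of single EV or TC + ATA replicates. Those on the pathway lists were chosen after seeing the data. A replicate block, the omission of a replicate and the fit of EV and TC libraries alone leave fewer residual degrees of freedom than the main fit. A call lost in such a fit does not show that the gene was unchanged.

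The 10 genes and the lists were chosen with earlier results of these data known. Named from each list were genes called in TC + ATA versus TC and the 3 largest called changes in TC versus EV with a mean of at least 1 CPM. Loxl1, Loxl2, Atp7a, Tgfb1, Tgfb2, Ltbp4, Mfap4, Hmcn2, Adamtsl5, Mmp2, Mmp3, Mmp12, Mmp14, Ctsk, Elane and Glb1 were named after their values were seen. Marker lists for fibroblasts, smooth muscle, endothelium, epithelium and leukocytes served to check the cell type. Profile neighbours were the 3 genes nearest to the largest increase, which are not reported here, and to the largest decrease. The small number of libraries limits the precision, as does depth for genes of few counts. The floor of 3 counts covers counting error only.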

Additional observations from a re-analysis of the deposited data

How the results depend on the processing

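The number of the 10 genes called higher in TC versus EV ran from 2 to 4 over the alternatives, and Mfap5 and Fbln1 were called in each of them. TC has 1 library and was never left out. The fits without an EV replicate assume that the remaining one varies like the TC + ATA libraries. Those differed less from each other than the EV pair did, so calls from these fits leave out the spread of the EV pair. Leaving out 1 replicate gave, in TC versus EV, 2 to 4 of the 10 genes higher, 0 to 3 lower, and 2162 to 3746 of all genes higher and 1912 to 3708 lower (3708 without EV replicate 1). In TC + ATA versus TC it gave 0 to 1 of the 10 genes higher, 0 to 8 pathway genes higher, 0 to 1 lower, and 7 to 808 of all genes higher and 3 to 762 lower, with the low ends without TC + ATA replicate 3 and the high ends without EV replicate 2 and EV replicate 1. In TC + ATA versus EV it gave 3 to 6 of the 10 genes higher and 0 to 1 lower (6 without EV replicate 1, 1 lower without EV replicate 2). In TC + ATA versus TC, the fit of those groups alone called 1 of the 10 genes higher (Efemp2), 8 pathway genes higher, and 795 of all genes higher and 633 lower, DESeq2 called 3, 236 and 85, and no filter on low counts 3, 242 and 108, while scaling by library size left 0 pathway genes lower. Of values that changed sign, Fbn1 in TC + ATA versus TC was −0.000863 without a filter and −0.0303 without TC + ATA replicate 1, where Mfap5 was −0.00595 (up to 0.0311 and 0.0356 with another replicate left out). Fbln2 and Fbln5 in TC versus EV were 0.00240 and 0.0755 without EV replicate 1 and −0.11 and −0.17 without EV replicate 2. Fbln5 in TC + ATA versus EV was 0.18 and −0.0533 without EV replicates 1 and 2 and −0.0218 with scaling by library size, which also called 1 of the 10 genes lower. The cause was not tested.

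Replicate numbers 1 and 2 occur in both EV and TC + ATA. The deviations of same-numbered libraries from their group means had r = 0.0228 and −0.220. With 2 EV libraries, the EV deviations are mirror images of each other. These values therefore cannot decide whether equal numbers mark a shared batch. A replicate block gave 7 pathway genes and 1717 of all genes higher and 1467 lower in TC versus EV, 0 pathway genes in either direction and 32 and 8 of all genes in TC + ATA versus TC, and 2195 lower in TC + ATA versus EV. With the block Efemp1 in TC versus EV was at 0.43 and was not called (adjusted p = 0.122).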
